A study of Mus musculus with 2 samples.

Results

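The cells described here are alveolar type I (AT1) cells of the fetal mouse lung at E18.5 (an embryonic day), shortly before birth. They numbered 3220 of the 12027 cells kept in the E18.5 library (26.8%, exact binomial 95% interval 26.0 to 27.6), and of 26113 cells kept in the whole series. They were chosen by their own counts of unique molecular identifiers (UMIs), each of which stands for 1 captured transcript. For every cell, A was the percentage of its UMIs in the AT1 markers Hopx, Ager, Aqp5, Rtkn2, Clic5, Akap5 and Pdpn summed, and S was the percentage in Sftpc, the gene of surfactant protein C. An AT1 cell had A of at least 1.2, S under 2 and no UMI of Ptprc, the leukocyte gene CD45. Their levels are set against those of 2586 cells of the same library with S of at least 8 and A under 0.5, called AT2 cells here, for alveolar type II.

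The study marked lung epithelial cells through Cdh16, the gene of kidney-specific cadherin, whose promoter drove the tamoxifen-inducible recombinase CreERT2, and collected them at E18.5 and at postnatal day 10 (P10), with 1 library of each time point. Both samples carry the genotype label Cdh16CreERT2;tdTomatoflox/flox, whereas the design text gives Cdh16CreERT2/wt;R26-tdTomatoflox/wt, so that recombined cells and their descendants turn red in either case. Pregnant dams received tamoxifen from E12.5, injected at 0.1 mg per kg body weight or fed at 0.4 g per kg food, and the sources used here do not say which library had which route or how many animals it pooled. Red cells within the CD326 (Epcam) stained fraction of collagenase and dispase digested lungs were sorted. The AT1 cells thus come from a sort for the Cdh16 lineage and are not a sample of all AT1 cells of the lung. Lineage was not measured in single cells here, and the library also held leukocytes. With 1 library a time point there is no replicate, no test was made, and every interval is a 95% interval of counting error only.

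AT1 cells are the very thin, flat cells that cover most of the gas exchange surface of the lung and share a fused basement membrane with the capillaries beneath them. They arise with AT2 cells, the cuboidal cells that make surfactant, from progenitors at the tips of the fetal airways, and they flatten as the lung nears birth. They are known for abundant caveolae, for a receptor of advanced glycation end products (Ager) at their base, for water channels, and for signals that guide the growing capillaries.

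The E18.5 library held 12739 barcodes and 137837590 UMIs, of which 712 barcodes failed the minimum of 500 genes and 1000 UMIs or the maximum of 20% mitochondrial UMIs. AT1 cells had a median of 5177 UMIs (10th to 90th percentile 2398 to 11744) and 2164 genes, against 9462 UMIs and 2785 genes in AT2 cells. The median mitochondrial share was 1.61% in AT1 cells and 1.43% in AT2 cells. Droplet libraries hold free RNA, so most levels are also given in 300 leukocytes of this library. These are cells with at least 2 Ptprc UMIs and no Epcam UMI (median depth 6762 UMIs). A level at or below theirs is not set apart from free RNA. It is not shown to be free RNA either, since leukocytes also express many genes themselves. Of these leukocytes, 41 had A of at least 0.5 and carried 3418 CPM of Ager, against 561 CPM in the other 259, so the leukocyte level of AT1 genes is not free RNA alone, and the counts of genes at or below leukocytes are also given for those 259. The E18.5 and P10 libraries shared 59 barcodes.

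The genes behind the label are described first. Levels are UMIs summed over the cells of a set and scaled to CPM, the share of that sum in parts per 1000000. Since A and S chose the cells, the levels of the 7 markers and of Sftpc are a description. Ager stood at 8251 CPM in AT1 cells, 1021 CPM in AT2 cells and 1048 CPM in leukocytes. Hopx, a homeodomain cofactor of AT1 cells and their progenitors, had 5096 CPM in AT1 cells, 572 in AT2 cells and 579.9 in leukocytes. The water channel gene Aqp5 had 1941, 223 and 217 CPM in these 3 sets, in the same order. For the intracellular chloride channel family gene Clic5 the levels were 1499.8 CPM in AT1 cells, 159 in AT2 cells and 213 in leukocytes, and for Rtkn2, of the rhotekin family, 1041, 76.3 and 117 CPM. Akap5, a gene of a kinase anchoring protein, had 937 CPM in AT1 cells, 76.4 in AT2 cells and 138 in leukocytes. The least abundant was Pdpn, the gene of the surface mucin podoplanin, with 294 CPM in AT1 cells, 29.6 in AT2 cells and 77.6 in leukocytes. In each case AT2 cells and leukocytes held a small fraction of the AT1 level.

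The markers were also counted in single cells. Since their sum chose the cells, these counts too are a description and no check of the label. All 7 were detected in 2122 of the 3220 AT1 cells (65.9%) and at least 6 in 2976 (92.4%), while 3 or fewer were found in 4. Ager gave 43.3% of all marker UMIs and Hopx 26.7%, and 844 cells took more of A from Ager than from all other markers together. Median A was 1.86 (10th to 90th percentile 1.35 to 2.63, highest 3.88) in AT1 cells and 0.150 in AT2 cells. Median S was 0.592 in AT1 cells, 13.98 in AT2 cells and 0.607 in leukocytes, so Sftpc in AT1 cells was near the leukocyte level.

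**Figure D1:**
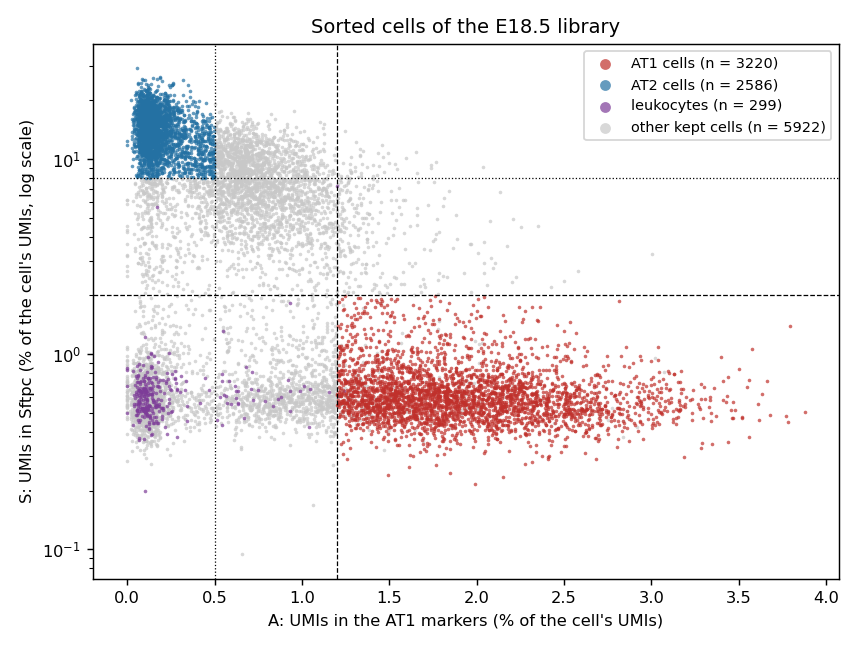
Each point is 1 kept cell of the E18.5 library, by A, the percentage of its UMIs in the 7 AT1 markers, and S, the percentage in Sftpc (log scale), with the limits of the AT1 cells dashed and those of the AT2 cells dotted. The 3220 AT1 cells form a band at a median S of 0.592, level with the leukocytes (median 0.607; 1 of the 300 also meets the AT2 limits and is drawn as an AT2 cell), and the 2586 AT2 cells lie at a median S of 13.98.

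Marker genes of other cell types were summed in each set. In AT1 cells the sums ran from 2.81 CPM for neuroendocrine to 2447 CPM for mesothelial markers. The 10 leukocyte markers summed to 708 CPM in AT1 cells, 8211 CPM in AT2 cells and 13647 CPM in leukocytes, with Ptprc (by the rule) and Cd3e at 0 in AT1 cells. Lyz2 is among these 10 and is also an AT2 gene, at least 2-fold lower in AT1 than in AT2 cells. The sum in AT2 cells is therefore not a measure of leukocyte RNA alone. The 10 endothelial markers summed to 275 CPM in AT1 cells, 104 in AT2 cells and 142 in leukocytes, and Esam alone gave 214 CPM in AT1 cells and 34.1 in AT2 cells, while Pecam1 had 21.1 and 31.3 CPM and Cdh5 7.91 and 6.19 CPM. The 6 mesothelial markers summed to 2447 CPM in AT1 cells, 460.2 in AT2 cells and 341 in leukocytes, and this was almost wholly Msln and Krt19, with Wt1 at 0.146 CPM, Upk3b at 1.07 and Lrrn4 at 0.0485 in AT1 cells. The 10 mesenchymal markers came to 136 CPM in AT1 cells, 102 in AT2 cells and 245 in leukocytes. The 5 club cell markers came to 672, 1320 and 660.1 CPM, and the 6 ciliated markers to 64.4, 86.8 and 53.5 CPM. Basal markers summed to 8.10 CPM in AT1 cells with Krt5 at 0, neuroendocrine markers to 2.81 CPM with Chga at 0, and lymphatic endothelial markers to 5.92 CPM. The 5 erythroid markers, mostly haemoglobin, summed to 882 CPM in AT1 cells, 1010 in AT2 cells and 1339 in leukocytes.

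The gene behind the labelling was scarce. Cdh16 (mm10, chromosome 8, 104601911 to 104624396, minus strand) had 2.33 CPM in AT1 cells (exact Poisson interval 1.72 to 3.09), 2.89 CPM in AT2 cells and no UMI in leukocytes, which allows up to 1.31 CPM at 3 counts. Epcam, the gene of the sort, had 373 CPM in AT1 cells and 354 CPM in AT2 cells, and was absent from the leukocytes by their definition.

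AT1 and AT2 cells differed across many genes. Of 8480 genes with at least 10 CPM in either set, called measured here, 1225 (14.4%) were at least 2-fold higher in AT1 cells and 771 (9.09%) at least 2-fold lower. Sftpc alone took 13.7% of the UMIs of AT2 cells, which lowers the CPM of their other genes, and the median ratio over measured genes was 1.26 (log2 0.33). With that median set to 0, called the centred scale here, 732 genes (8.63%) were at least 2-fold higher and 1093 (12.9%) lower, so that the share of higher genes among all called was 61.4% as scaled to totals and 40.1% on the centred scale. In AT1 cells, 2040 measured genes (24.1%) stood at least 2-fold above leukocytes and 3165 (37.3%) at or below them, or 3160 (37.3%) with the 259 leukocytes. These shares over all measured genes are the ones to set beside the counts of each gene list below. Of the 771 lower genes, 437 (56.7%) were at or below the leukocyte level in AT1 cells, and of the 1225 higher genes, 706 (57.6%) were at or below it in AT2 cells, and with the 259 leukocytes alone 430 and 538 (43.9% of the higher genes).

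The 15 genes with the largest ratios in favour of AT1 cells, among 2944 genes averaging at least 50 CPM, ran between 9.51 and 13.6-fold. Rtkn2, Akap5 and Pdpn belong to the rule. The largest of the other 12 was Scnn1g, the gamma subunit gene of the epithelial sodium channel, with 253 CPM (247 to 260.4) in AT1 cells, 20.7 in AT2 cells and 26.7 in leukocytes, a ratio of AT1 over AT2 of 12.2 (11.2 to 13.3). Igfbp7, a secreted protein of vessels and matrix that binds insulin-like growth factors, had 1172 CPM in AT1 cells, 109 in AT2 cells and 149 in leukocytes, a ratio of 10.7 (10.3 to 11.1). An Igfbp7 UMI was seen in 96.7% of AT1 cells and 51.1% of AT2 cells, and after thinning all cells to 3000 UMIs in 95.2% (94.4 to 96.0), 23.4% (21.8 to 25.1) and, of leukocytes, 29.6% (24.2 to 35.5).

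Sema3a, a secreted guidance cue that repels growing axons and acts on vessels, had 562 CPM in AT1 cells, 54.9 in AT2 cells and 94.7 in leukocytes, a ratio of 10.2 (9.72 to 10.8). Msln, mesothelin, a surface protein of mesothelial cells, had 959.8 CPM in AT1 cells, 95.6 in AT2 cells and 134 in leukocytes, a ratio of 10.0 (9.65 to 10.5), with Krt19 but without Wt1, Upk3b and Lrrn4 among the mesothelial genes named above. Spock2, a matrix proteoglycan gene, had 203, 20.6 and 33.3 CPM in AT1 cells, AT2 cells and leukocytes, and Wfdc1, a secreted protein with a whey acidic domain, 165, 16.7 and 20.2 CPM. The remaining genes were Scnn1b, Cavin2, Cav1 and Cav2, described with their groups, Akr1c14, an aldo-keto reductase gene (116, 11.2 and 10.5 CPM), and Pakap, another gene of kinase anchoring (493, 50.6 and 74.1 CPM), whose symbol is shared by 2 identifiers. The level in AT2 cells was at or below that in all 300 leukocytes for 14 of the 15, but at or below that in the 259 leukocytes with A under 0.5 for only 3, Cav1, Cav2 and Pdpn, so for the other 12 AT2 cells stood above this lower level.

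In the other direction Sftpc, a gene of the rule, led. After it, the largest ratio was that of Dlk1, an imprinted gene of a Notch-family ligand, with 166 CPM in AT1 cells, 3383 in AT2 cells and 164 in leukocytes, 20.4-fold lower (19.7 to 21.1) in AT1 cells. Sftpa1, the gene of surfactant protein A, was 18.4-fold lower (18.0 to 18.8), with 450.5 CPM in AT1 cells, 8277 in AT2 cells and 500.1 in leukocytes, and Sftpb, of surfactant protein B, 17.1-fold lower, with 192, 3278 and 227 CPM. Slc34a2, the phosphate transporter gene of AT2 cells, had 61.2 CPM in AT1 cells, 1156 in AT2 cells and 68.4 in leukocytes, and Lamp3, of the membrane of lamellar bodies, 41.3, 748 and 46.0 CPM. Cxcl15, a lung chemokine gene, had 325, 6019 and 351 CPM. Retnla, Pon1, S100g, Lyz1, Arhgef38, Il33, Car8 and Spink5 completed the 15, between 16.4 and 19.9-fold lower in AT1 cells. Lyz1 has a near-identical copy, Lyz2, and the split of reads between them is uncertain. In AT1 cells all of the 15 but Dlk1 were at or below the leukocyte level, and the median over the 15 was 0.898 of it. Against the 259 leukocytes 10 of the 15 were, and Cxcl15, Dlk1, Sftpc, Slc34a2 and Spink5 were above.

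**Figure D2:**
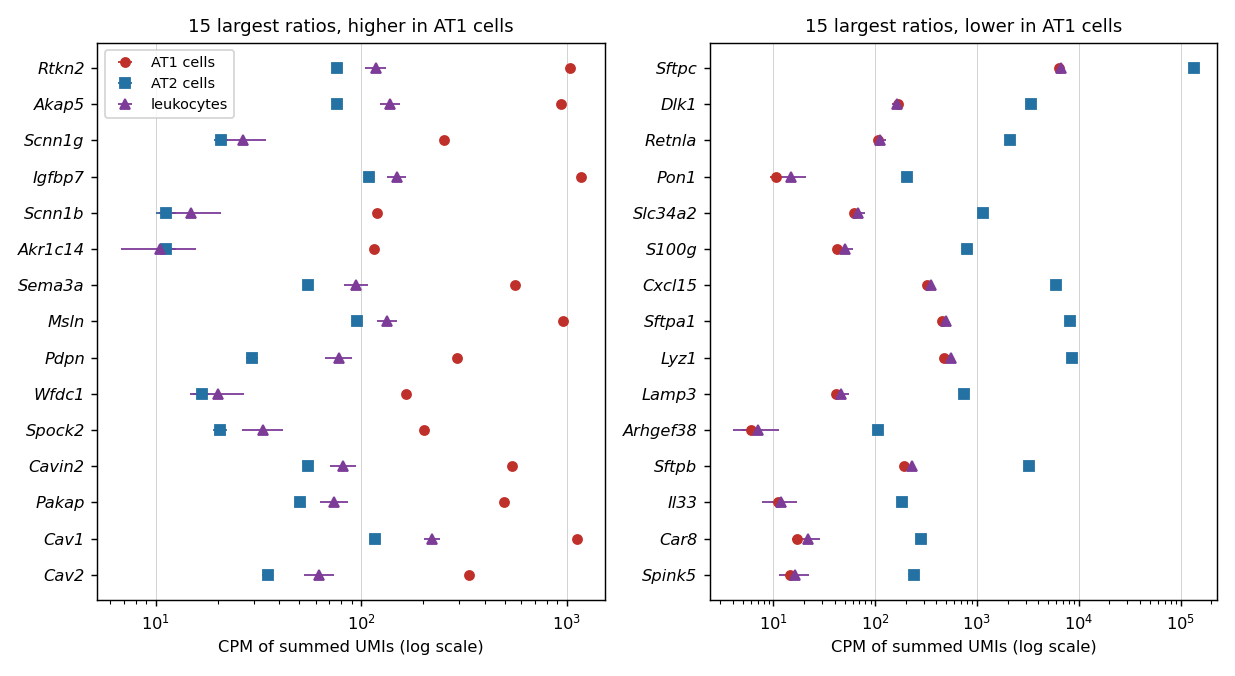
CPM of summed UMIs (log scale) in AT1 cells, AT2 cells and leukocytes for the 15 genes with the largest ratios in each direction, with bars for exact Poisson 95% intervals where wider than the symbol. On the left AT1 cells stand apart from both other sets, and on the right AT1 cells lie near the leukocytes, as for Lamp3 with 41.3 CPM in AT1 cells, 748 in AT2 cells and 46.0 in leukocytes.

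Known AT1 genes that the rule did not use were higher in AT1 cells wherever they were measured. Such genes, like the members of the lists below, were chosen with earlier results of these data known. Their counts are therefore a description and no check of the label. Of 28 such genes 24 were measured, and all 24 were at least 2-fold higher in AT1 cells on either scale, against 14.4% of all measured genes (8.63% on the centred scale). Their median log2 ratio was 2.63, against 0.33 over all measured genes, and all 24 stood at least 2-fold above leukocytes. Emp2, an epithelial membrane protein gene, had 1995 CPM in AT1 cells, 339 in AT2 cells and 262 in leukocytes. Lmo7, of a scaffold at cell junctions, had 2613, 806 and 505 CPM, and Limch1, an actin-associated protein gene, 1169.5, 165 and 242 CPM. Cldn18, the claudin of alveolar tight junctions, was among the least separated, with 1535 CPM in AT1 cells, 588 in AT2 cells and 242 in leukocytes, a ratio of 2.61 (2.56 to 2.66), and it stood above leukocytes in both. Gramd2 (226, 28.3 and 31.1 CPM) and Sec14l3 (320.0, 42.9 and 46.9 CPM), an AT1 marker gene and a lipid-binding protein gene, had ratios of 7.98 and 7.47. Igfbp2, known from AT1 cells of the older lung, was not measured, with 8.78 CPM in AT1 cells and 5.60 in AT2 cells, and neither were Cyp2b10, Cyp4b1 and Bdnf.

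Caveolae, the flask-shaped pits of the AT1 membrane, were represented by nearly all of their parts. Of 10 genes 9 were measured, and 8 were at least 2-fold higher in AT1 cells on either scale, with a median log2 ratio of 2.86. The caveolin genes Cav1 and Cav2, which form the coat, had 1125 and 334 CPM in AT1 cells, 117 and 35.1 CPM in AT2 cells and 220.5 and 62.2 CPM in leukocytes, ratios of 9.64 (9.30 to 10.00) and 9.51 (8.91 to 10.2). A Cav1 UMI was present in 95.5% of AT1 cells and 51.7% of AT2 cells, and after thinning in 94.0% (93.0 to 94.8), 21.9% (20.3 to 23.6) and, of leukocytes, 33.3% (27.7 to 39.3). Of the cavins, which stabilise the coat, Cavin2 had 543 CPM in AT1 cells, 55.3 in AT2 cells and 82.0 in leukocytes. Cavin1 (191, 34.1 and 35.5 CPM) and Cavin3 (161, 22.2 and 26.3 CPM) followed, and Cavin4, known from muscle, had 44.4, 9.11 and 8.77 CPM. Ehd2, the gene of an ATPase at the neck of caveolae, had 199.98, 23.4 and 34.6 CPM. Pacsin2, which bends the membrane there, had a ratio of 2.61 (2.43 to 2.79), while its relative Pacsin3 lay between the limits (17.0 CPM in AT1 cells and 24.1 in AT2 cells), and the muscle caveolin Cav3 had 0.0971 CPM in AT1 cells.

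Cav2 (mm10, chromosome 6, 17281185 to 17289115, plus strand) and Cav1 (17306335 to 17341452, plus strand) are neighbours whose starts lie 25150 bases apart. Their promoters are shown because the 2 genes had like ratios, each from 250 bases before the gene's start to 50 bases after it, from RefSeq on GRCm38.p6, at chr6:17280935-17281234 for Cav2 and chr6:17306085-17306384 for Cav1, both plus strand. Capitals mark CAAGTG or its reverse complement CACTTG, a core bound by Nkx2-1 and its relatives; GGAATG and CATTCC, the core bound by TEAD factors, were searched likewise on both strands, and neither motif contains the other.
Cav2: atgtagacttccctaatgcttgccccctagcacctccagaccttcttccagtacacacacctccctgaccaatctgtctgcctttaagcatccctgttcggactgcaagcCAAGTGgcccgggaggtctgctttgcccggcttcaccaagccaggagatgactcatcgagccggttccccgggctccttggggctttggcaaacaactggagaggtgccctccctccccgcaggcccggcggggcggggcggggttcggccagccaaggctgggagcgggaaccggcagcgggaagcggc
Cav1: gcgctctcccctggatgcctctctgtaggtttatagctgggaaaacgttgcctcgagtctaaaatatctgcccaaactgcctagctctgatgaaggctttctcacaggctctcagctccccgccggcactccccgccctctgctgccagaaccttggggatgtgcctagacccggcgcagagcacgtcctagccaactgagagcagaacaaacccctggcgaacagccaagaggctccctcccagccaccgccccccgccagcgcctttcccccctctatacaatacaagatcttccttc
The first holds 1 Nkx2-1 type match and the second none, and neither holds a TEAD type match. Of 32851 mouse promoters of this length, 13.6% hold the Nkx2-1 type core and 14.7% the TEAD type core, and of the first promoters of 6780 measured genes 10.3% and 11.5%. For the genes at least 2-fold higher in AT1 cells with a promoter in the table (947) the shares were 11.6% and 13.9%, against 14.6% and 12.2% for the genes at least 2-fold lower (591). A match is a run of letters and not a site.

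Transport genes divided between the cell types. Of 22 genes of ion and water transport 21 were measured, 8 at least 2-fold higher and 4 lower in AT1 cells, with a median log2 ratio of 0.22 (7 and 5 on the centred scale, where the median is below 0). All genes of the epithelial sodium channel, which takes up lung liquid around birth, were higher. Scnn1a, of the alpha subunit, had 524 CPM in AT1 cells, 116 in AT2 cells and 93.4 in leukocytes, a ratio of 4.50 (4.33 to 4.68). Scnn1b, of the beta subunit, had 119 CPM in AT1 cells, 11.2 in AT2 cells and 14.9 in leukocytes, a ratio of 10.6 (9.46 to 12), close to that of Scnn1g given above. Aqp1, a water channel gene better known from endothelium, had 495 CPM in AT1 cells, 58.6 in AT2 cells and 72.8 in leukocytes. Of the endothelial list given above, Esam was also higher in AT1 cells and the summed level was 275, 104 and 142 CPM, while Pecam1 and Cdh5 were no higher in AT1 cells than in leukocytes, and their part in the Aqp1 level was not tested. Clic3 (1566, 277 and 214 CPM), a relative of Clic5, Ano1 (163, 36.2 and 35.9 CPM), a calcium-gated chloride channel gene, Fxyd3, a regulator of the sodium pump, and the metal carrier gene Slc39a8 were the others. Lower in AT1 cells was Cftr, the chloride channel that secretes lung liquid, with 15.7 CPM in AT1 cells, 139.9 in AT2 cells and 7.89 in leukocytes, 8.92-fold lower (7.97 to 10.0). The bicarbonate carrier gene Slc4a4 (57.0, 178 and 20.6 CPM), the potassium channel gene Kcnk1 and the water channel gene Aqp3 (1.02 CPM in AT1 cells and 13.1 in AT2 cells) were also lower. The sodium pump gene Atp1b1 (613, 968 and 139 CPM) lay between the limits.

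Scnn1g (mm10, chromosome 7, 121734479 to 121768475, plus strand) and Scnn1b (121865038 to 121918514, plus strand) also lie side by side, with starts 130559 bases apart, and their promoters are shown for that reason (RefSeq, GRCm38.p6, chr7:121734229-121734528 and chr7:121864788-121865087, plus strand, capitals as above).
Scnn1g: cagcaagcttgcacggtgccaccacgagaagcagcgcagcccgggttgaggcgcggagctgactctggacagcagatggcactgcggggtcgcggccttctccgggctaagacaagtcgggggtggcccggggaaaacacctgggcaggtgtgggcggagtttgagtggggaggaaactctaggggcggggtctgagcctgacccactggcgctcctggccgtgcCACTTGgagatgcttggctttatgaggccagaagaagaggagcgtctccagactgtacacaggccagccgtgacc
Scnn1b: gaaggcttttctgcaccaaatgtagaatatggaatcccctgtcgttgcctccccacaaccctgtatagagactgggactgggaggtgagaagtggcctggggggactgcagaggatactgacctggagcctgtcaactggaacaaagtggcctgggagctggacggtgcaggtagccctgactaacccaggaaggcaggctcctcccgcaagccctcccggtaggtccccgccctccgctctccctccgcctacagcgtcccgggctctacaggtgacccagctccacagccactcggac
The Scnn1g window holds 1 Nkx2-1 type match and the Scnn1b window none, and neither has a TEAD type match.

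Basement membrane genes were the next group. Of 28 genes 21 were measured, 18 at least 2-fold higher in AT1 cells and 2 lower, with a median log2 ratio of 1.89 (13 and 3 on the centred scale). Among type IV collagens, the network formers of basement membranes, the alpha 3 and alpha 4 chains of the mature lung and kidney led. Col4a3 had 554 CPM in AT1 cells, 59.4 in AT2 cells and 106 in leukocytes, a ratio of 9.32 (8.86 to 9.81), and Col4a4 had 794, 87.8 and 125 CPM, a ratio of 9.05 (8.68 to 9.43). Col4a5, whose chain joins them in 1 trimer, had 270.4, 52.9 and 47.8 CPM, a ratio of 5.11. The chains found in nearly every basement membrane, Col4a1 (839, 226 and 174 CPM) and Col4a2 (552, 137 and 103 CPM), had ratios of 3.71 and 4.04. Laminin chain genes Lama3, Lama5, Lamb2, Lamb3 and Lamc1 were between 2.19 and 3.71-fold higher, of which Lama5, Lamb3 and Lamc1 were under 2-fold on the centred scale. Lamb1, a laminin chain of early basement membranes, was lower, with 4.85 CPM in AT1 cells, 32.3 in AT2 cells and 5.70 in leukocytes. The heparan sulfate proteoglycan genes Hspg2 (229 CPM in AT1 cells and 43.0 in AT2 cells) and Agrn (265 and 41.1 CPM), Npnt, of the integrin ligand nephronectin (614 and 134 CPM), and Fras1 (154 and 24.1 CPM) were higher, and Frem2, whose protein works with that of Fras1, was 2.39-fold lower (13.2 and 31.6 CPM). Integrin genes differed among themselves, with Itga3 4.96-fold higher and Itga6, at 63.0 CPM in AT1 cells and 115 in AT2 cells, 1.82-fold lower.

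Col4a3 (mm10, chromosome 1, 82586921 to 82722059, plus strand) and Col4a4 (82448423 to 82586849, minus strand) are read away from each other, and their starts lie 72 bases apart, so the window around the start of Col4a4 holds the space between them. It is shown on the minus strand of chr1:82586800-82587099 (RefSeq, GRCm38.p6), with capitals for the bases from the start of Col4a3 to that of Col4a4.
Col4a4: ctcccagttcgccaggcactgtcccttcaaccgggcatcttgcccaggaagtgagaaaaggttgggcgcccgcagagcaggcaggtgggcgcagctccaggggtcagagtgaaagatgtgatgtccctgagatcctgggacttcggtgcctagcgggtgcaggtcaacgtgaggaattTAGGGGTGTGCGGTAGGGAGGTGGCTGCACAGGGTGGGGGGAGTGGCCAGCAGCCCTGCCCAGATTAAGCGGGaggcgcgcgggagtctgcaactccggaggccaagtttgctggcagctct
Neither core searched above is in this window.

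Among signals to vessels and mesenchyme most measured genes were higher. Of 20 genes 16 were measured, 13 at least 2-fold higher in AT1 cells and none lower, with a median log2 ratio of 2.09 (11 and 2 on the centred scale). Vegfa, the growth factor of endothelial cells, had 1187 CPM in AT1 cells, 269.8 in AT2 cells and 229 in leukocytes, a ratio of 4.40 (4.29 to 4.51), and after thinning a Vegfa UMI was seen in 95% of AT1 cells (94.1 to 95.8), 49.4% of AT2 cells (47.5 to 51.4) and 38.5% of leukocytes (32.7 to 44.6), and before it in 98.6% of AT1 cells and 82.8% of AT2 cells. Beside Sema3a, the class 3 semaphorin Sema3e, a cue for vessels, had 263, 45.2 and 56.1 CPM in AT1 cells, AT2 cells and leukocytes, and Sema3b 49.9, 16.2 and 9.20 CPM, whereas Sema3c lay between the limits with 23.2 CPM in AT1 cells and 38.2 in AT2 cells. Pdgfa, the growth factor that reaches alveolar myofibroblast precursors, had 290.2, 67.1 and 52.6 CPM. Shh, a signal from epithelium to mesenchyme, had 67.2, 16.1 and 8.33 CPM, and Tgfb2 124, 20.8 and 25.0 CPM.

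Some signals were scarce but stood apart. The WNT ligand gene Wnt3a had 30.4 CPM in AT1 cells, 2.61 in AT2 cells and 3.51 in leukocytes, a ratio of 11.6 (9.17 to 15), Wnt7a had 16.6, 2.34 and 3.07 CPM, and Wnt7b had 13.1, 5.60 and 3.07 CPM. Fgf18, a growth factor for mesenchyme, had 53.9, 9.52 and 9.64 CPM. Bmp4 (52.4, 25.9 and 8.77 CPM) and Wnt7b passed 2-fold only as scaled to totals. Pdgfb, at 15.3 CPM in AT1 cells, 3.82 in AT2 cells and 14.5 in leukocytes, was close to the leukocyte level. The ligand genes of vessel signalling Edn1 (35.6, 31.8 and 11 CPM) and Efnb2 (52.0, 92.0 and 18.0 CPM) lay between the limits, and the 2 genes lower on the centred scale were Efnb2 and Sema3c.

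**Figure D3:**
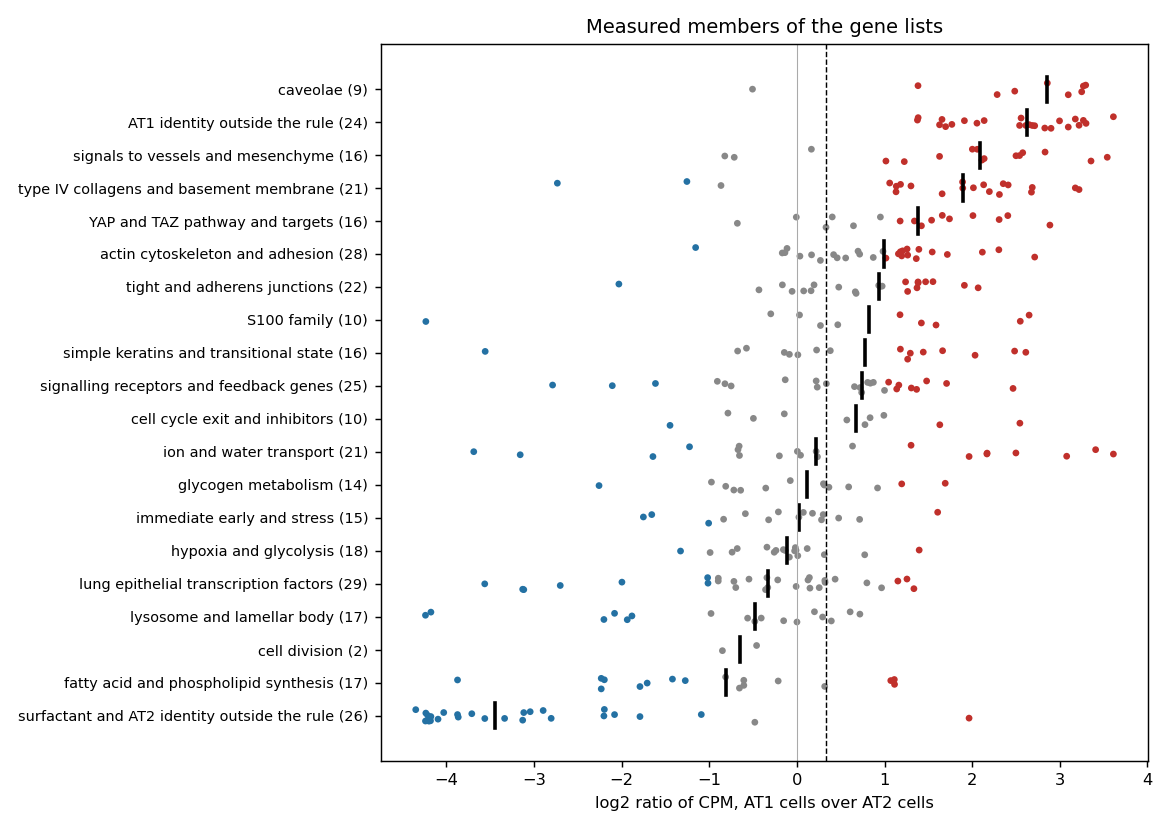
Each point is the log2 ratio of CPM, AT1 cells over AT2 cells, of a measured member of a gene list, red at 2-fold higher or more, blue at 2-fold lower or more and grey between, with a thick bar for the list's median. The number of measured members stands beside each name, vertical spread within a list has no meaning, and the dashed line marks the median of all measured genes, 0.33. Medians run between 2.86 for caveolae and -3.45 for surfactant and AT2 identity.

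The actin cytoskeleton, junctions and the YAP and TAZ pathway, which senses cell spreading, leaned the same way with smaller ratios. Of 30 actin and adhesion genes 28 were measured, 14 higher and 1 lower (7 and 1 on the centred scale), with a median log2 ratio of 1.00. Ahnak, of a very large scaffold under the membrane, had 1388 CPM in AT1 cells, 212 in AT2 cells and 637 in leukocytes, and Msn, which links actin to the membrane, 880.4, 178 and 504 CPM. Myh14, a nonmuscle myosin gene, had 734, 169 and 139 CPM. In 9 of the 28 genes AT1 cells were at or below leukocytes, as for Actb with 7473, 3111 and 9499 CPM. With the 259 leukocytes the count was also 9. Over all measured genes the share at or below leukocytes was 37.3%. Of 26 junction genes 22 were measured, 9 higher and 1 lower (7 and 1), with a median of 0.94. Tjp1, the scaffold ZO-1 of tight junctions, had 502 CPM in AT1 cells, 119.6 in AT2 cells and 89.9 in leukocytes, and Cldn10 was 4.09-fold lower, with 95.7, 391 and 37.7 CPM. Cldn3 (1155, 1296 and 235 CPM) and E-cadherin, Cdh1 (251, 225 and 73.6 CPM), were at like levels in both alveolar sets and well above leukocytes.

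Of 20 YAP and TAZ genes 16 were measured, 10 higher and none lower (9 and 1 on the centred scale), with a median of 1.38. The coactivator genes themselves were under 2-fold, with 49.7 CPM of Yap1 in AT1 cells, 37.6 in AT2 cells and 13.6 in leukocytes, and 429, 221 and 114 CPM of Wwtr1, the gene of TAZ. Their DNA-binding partner Tead1 had 312 CPM in AT1 cells, 77.5 in AT2 cells and 67.9 in leukocytes, and Tead4 43.6, 8.80 and 9.20 CPM. The target gene Ccn2 had 314, 42.5 and 54.4 CPM, a ratio of 7.40 (6.96 to 7.87), Ccn1 839, 289 and 165 CPM, and Ajuba 48.7, 9.18 and 8.77 CPM, while Ankrd1, another target, was not measured.

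Keratins of simple epithelia were higher in AT1 cells. In a list of 17 genes of simple keratins and of the transitional state seen between AT2 and AT1 cells after injury, 16 were measured, 8 higher and 1 lower (5 and 2 on the centred scale), with a median log2 ratio of 0.78. That median was 0.011 for AT1 cells with A of at least 2 and 1.43 against AT2 cells with S of at least 15. Krt7 had 1060.0 CPM in AT1 cells, 173 in AT2 cells and 131 in leukocytes, a ratio of 6.11 (5.93 to 6.31), Krt19 1485, 363 and 205 CPM, Krt18 2084, 658 and 263 CPM, and Krt8 1253, 461 and 178 CPM. Itgb6, the integrin chain that activates TGF-beta, had 237, 42.3 and 49.5 CPM. Areg, a ligand of the EGF receptor, was 11.8-fold lower (11.3 to 12.3), with 111 CPM in AT1 cells, 1309 in AT2 cells and 102 in leukocytes. Fn1 (24.3, 38.8 and 689 CPM) and Clu (24.7, 36.9 and 9.20 CPM), also of that state, lay between the limits, and Krt17 was not measured.

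Transcription factor genes of the lung epithelium were mostly shared or higher in AT2 cells. Of 33 genes 29 were measured, 3 at least 2-fold higher and 7 lower in AT1 cells, with a median log2 ratio of -0.33 (1 and 11 on the centred scale). Nkx2-1, the regulator of lung epithelial identity, had 317 CPM in AT1 cells, 254 in AT2 cells and 47.3 in leukocytes, and Foxa2 45.6, 38.2 and 7.89 CPM. Gata6 had 212, 122 and 45.6 CPM, and Klf5 232, 213 and 46.0 CPM. Cebpa, a regulator of AT2 cells, was 8.68-fold lower (7.84 to 9.62) in AT1 cells, with 19.8, 172 and 60.5 CPM. Etv5, which acts after FGF signals in AT2 cells and tip progenitors, was 8.75-fold lower (14.8, 129.9 and 11.8 CPM), Elf5 11.8-fold lower (10.4, 123 and 7.89 CPM), and Sox9, of the tip progenitors, 3.99-fold lower (9.95, 39.7 and 3.94 CPM). The higher genes were Id3 (535, 224 and 124 CPM), a target of BMP signals, Hes1 (253, 100.4 and 53.5 CPM), a target of Notch, and Nr3c1, of the glucocorticoid receptor (172, 77.4 and 109 CPM). On the centred scale only Hes1 of these kept 2-fold.

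Receptors and feedback genes pointed both ways. Of 32 genes 25 were measured, 8 higher and 3 lower in AT1 cells, with a median log2 ratio of 0.74 (4 and 6 on the centred scale), beside 14.4% higher and 9.09% lower over all measured genes. Egfr, the EGF receptor gene, had 144 CPM in AT1 cells, 26.0 in AT2 cells and 23.2 in leukocytes, a ratio of 5.53 (5.10 to 5.99). Its ligand genes differed, with Areg lower in AT1 cells and Hbegf at least 2-fold higher. Fzd2, a WNT receptor gene, had 157, 48.2 and 24.5 CPM, and Smad7, an inhibitor of TGF-beta signals, 216, 77.4 and 66.6 CPM. Bambi, a decoy receptor gene, was 6.91-fold lower (28.9, 199 and 28.5 CPM), and Fgfr2, the receptor of epithelial FGF signals, stood at 209 CPM in AT1 cells, 392 in AT2 cells and 83.3 in leukocytes, 1.88-fold lower. The WNT target genes Axin2 and Lef1 were not measured, with 6.50 and 0.437 CPM in AT1 cells, and neither were the Notch target Hey1 and ligand Dll1.

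Genes of surfactant and AT2 identity outside the rule were lower as a group. All 26 were measured, 24 at least 2-fold lower in AT1 cells and 1 higher on either scale, with a median log2 ratio of -3.45. In AT1 cells 14 of the 26 were at or below all 300 leukocytes, but only 11 at or below the 259 with A under 0.5. Over all measured genes that share was 37.3% with either set of leukocytes. Those that stood at least 2-fold above leukocytes in AT1 cells were 4. Ctsh, a cathepsin that processes surfactant protein B, was nearly shared, with 2235 CPM in AT1 cells, 3118 in AT2 cells and 675 in leukocytes. Lpcat1, of surfactant lipid synthesis, had 200.1, 692 and 75.0 CPM, and the surface mucin gene Muc1 114, 242 and 35.9 CPM. The amino acid carrier gene Slc6a14, listed with AT2 genes, was higher in AT1 cells, with 146 CPM in AT1 cells, 37.3 in AT2 cells and 26.3 in leukocytes, a ratio of 3.90 (3.64 to 4.19). Napsa, a protease of the same pathway as Ctsh, lay in between, at 393 CPM in AT1 cells, 1808 in AT2 cells and 221 in leukocytes. The lamellar body transporter gene Abca3 had 67.6, 286 and 46.9 CPM.

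The lipid and lysosome genes that serve surfactant followed in part. Of 20 genes of fatty acid and phospholipid synthesis 17 were measured, 3 higher and 8 lower in AT1 cells, with a median of -0.81 (0 and 9 on the centred scale). Scd1, a fatty acid desaturase gene, was 14.7-fold lower (13.9 to 15.5), with 70.1 CPM in AT1 cells, 1027 in AT2 cells and 73.6 in leukocytes, whereas its relative Scd2 had 1040.0, 480.4 and 234 CPM, and was 2.16-fold higher. Fasn, of fatty acid synthase, was 4.70-fold lower (63.3, 298 and 41.6 CPM) and Gpam 4.59-fold lower (32.8, 150.5 and 19.7 CPM). Of 17 measured genes of the lysosome and the lamellar body, a storage organelle of lysosomal kind, none was higher and 6 were lower (0 and 7), with a median of -0.48, and the general lysosome genes Lamp1 (481 CPM in AT1 cells and 419 in AT2 cells) and Lamp2 (286 and 285 CPM) were at like levels. Npc2, a sterol carrier gene of lysosomes, was 3.83-fold lower, yet had 1809 CPM in AT1 cells, 6923 in AT2 cells and 1225 in leukocytes.

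Hardly any AT1 cell carried transcripts of dividing cells. At least 3 UMIs over Mki67, Top2a, Cdk1, Ccnb1 and Birc5 were found in 5 of 3220 AT1 cells (0.155%, 0.0504 to 0.362), 10 of 2586 AT2 cells (0.387%, 0.186 to 0.710) and 27 of 300 leukocytes (9.0%, 6.01 to 12.8), and after thinning in 1 of 2747, 2 of 2540 and 21 of 270. Of 20 division genes only Pcna and Tyms were measured, and both were at or below leukocytes in AT1 cells, also with the 259 alone. Among 10 measured genes of cell cycle exit, 2 were higher and 1 lower in AT1 cells (2 and 2 on the centred scale), with a median of 0.67, and these counts are near the shares over all measured genes (14.4% higher and 9.09% lower). The inhibitor gene Cdkn2b had 347 CPM in AT1 cells, 59.4 in AT2 cells and 38.1 in leukocytes, a ratio of 5.83 (5.54 to 6.15), and Cdkn1b, of p27, 183, 59.1 and 71.9 CPM. Cdkn1a, of p21, was at 328, 363 and 494 CPM.

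AT1 cells also differed among themselves. Split by A, 1909 cells lay between 1.2 and 2, 1186 between 2 and 3 and 125 at 3 or more, with median depths of 5407, 4988 and 4079 UMIs. A is a rule measure, so the split is a description of a range and not of types. The ranges also differ in the sex of their cells. Xist cells without Y-linked UMIs numbered 601, 560 and 60 from the lowest to the highest range, and cells with a Y-linked UMI and no Xist 501, 112 and 4. Within the Xist cells Igfbp7 had 1004, 1458 and 2042 CPM, Wfdc1 125, 208 and 319 CPM and Cav1 1107, 1359 and 1374 CPM. The part of sex in the other levels along A given in this paragraph was not tested. Igfbp7, outside the rule, stood at 983, 1440.3 and 1994 CPM from the lowest to the highest range, Wfdc1 at 130.1, 212 and 337 CPM, Msln at 846, 1117 and 1531 CPM, and Sema3a at 458, 724 and 834 CPM. Krt7 stood at 959, 1206 and 1462 CPM and Cav1 at 1016, 1299 and 1366 CPM. Vegfa stood at 1229.8, 1119.7 and 1073 CPM, and Sftpc stayed near the leukocyte level at 6698, 6048 and 5833 CPM. Of the 24 measured AT1 genes outside the rule, none differed 2-fold between the highest and lowest range. On the log2 scale 20 of them were above 0, with a median of 0.42. Over 7881 genes of at least 10 CPM in AT1 cells, 4360 were above 0, with a median of 0.07.

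Among the 20 gene lists, the median furthest from 0 along A was that of immediate early genes, which cells switch on within minutes of a stimulus. Fos stood at 1348 CPM at A of 1.2 to 2, 574 CPM at 2 to 3 and 238 CPM at 3 or more, and Egr1 at 743, 216 and 88.7 CPM. Junb stood at 1258, 576 and 334 CPM. Of 15 immediate early and stress genes 11 were at least 2-fold lower in the highest than in the lowest range, with a median log2 ratio of -1.54, where 527 of those 7881 genes were lower (6.69%) and 253 higher (3.21%). The related genes Hbegf (466, 168 and 58.5 CPM), Ccn1 (1086, 453 and 190 CPM) and Ccn2 (389, 196 and 142 CPM) ran with them. Among AT1 cells of 4000 to 10000 UMIs 11 of the 15 were lower as well (median -1.81), a range of depth set for all 3 ranges of A. Among Xist cells without Y-linked UMIs 9 were lower, and among cells with a Y-linked UMI and no Xist 10, the last with only 4 cells at A of 3 or more. For A of 2 to 3 against 1.2 to 2, 8 of the 15 were lower in all AT1 cells (median log2 ratio -1.07), 4 at matched depth (-0.82), 9 in Xist cells (-1.16) and 1 in Y-linked cells (-0.50). That 1 gene was Egr1, with 785 CPM at A of 1.2 to 2 and 389 CPM at 2 to 3 in Y-linked cells. Malat1, a nuclear RNA, stood at 23052, 17483 and 13229 CPM in all AT1 cells and at 23290.5, 17857 and 14271 CPM in Xist cells. The part of nuclear RNA in the levels along A was not tested.

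**Figure D4:**
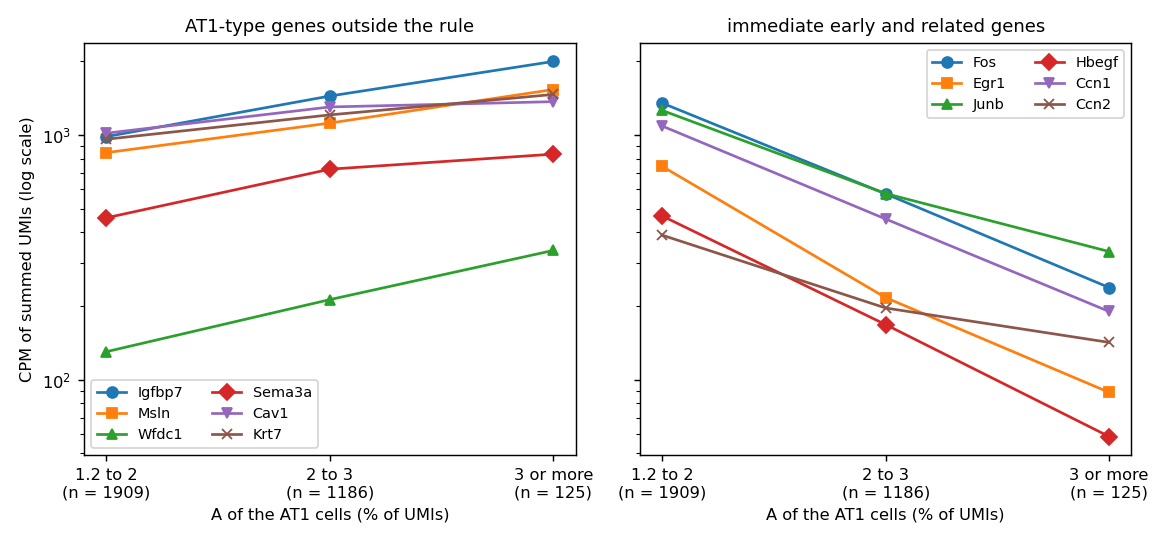
CPM of summed UMIs (log scale) in AT1 cells split by A, the percentage of UMIs in the 7 AT1 markers, for 6 AT1-type genes outside the rule and 6 immediate early or related genes. From the lowest to the highest range Igfbp7 lies at 983, 1440.3 and 1994 CPM and Egr1 at 743, 216 and 88.7 CPM.

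Against AT2 cells, the same immediate early genes showed no common direction, and most were at or below leukocytes. Of the 15, 1 was higher and 3 were lower in AT1 cells (1 and 4 on the centred scale), with a median log2 ratio of 0.02. AT1 cells were at or below leukocytes for 12, or for 11 with the 259 leukocytes, beside 37.3% of all measured genes. Ier3 had 1042 CPM in AT1 cells, 342 in AT2 cells and 1360.1 in leukocytes, and Atf3 406, 817 and 603 CPM.

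Cell to cell spread was measured by the Fano factor, the variance over the mean of UMIs in 2747 AT1 cells thinned to 3000 UMIs, which is 1 for counting noise alone. Among 879 genes averaging at least 0.5 UMI, without haemoglobin, mitochondrial, ribosomal, sex-linked and Gm or Rik genes, Malat1 was highest at 16.4, then Tmsb4x, of an actin-binding peptide, at 5.87, Scgb1a1 at 5.0, S100a6 at 4.48, Fos at 4.45 and Actb at 4.42. Scgb1a1, the club cell secretoglobin, had 599 CPM in AT1 cells, 1174 in AT2 cells and 593 in leukocytes, so AT1 cells were close to the leukocyte level. Of the markers, Hopx had 3.76, Rtkn2 3.11 and Ager 2.74. Rtkn2 varied more than Akap5 at a like mean, with 3.14 UMIs and a Fano factor of 3.11 against 2.76 UMIs and 1.73, and its level in single cells ran between 178 CPM at the 10th percentile and 2549 CPM at the 90th, with a median of 739 CPM.

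**Figure D5:**
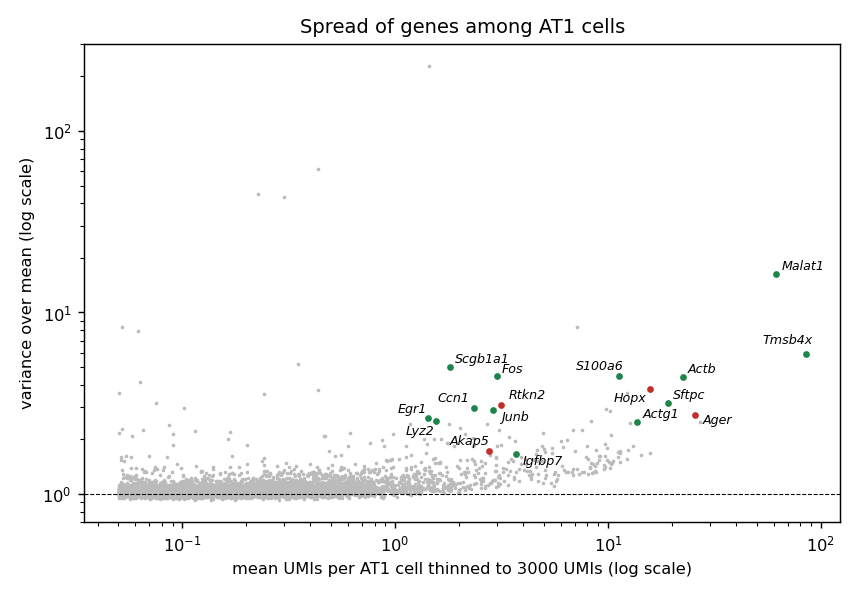
Fano factor (variance over mean, log scale) of each gene against its mean number of UMIs in AT1 cells thinned to 3000 UMIs (log scale), with the 15 highest genes averaging at least 0.5 UMI and 2 genes for comparison named, and rule markers in red. Most genes lie near 1, the dashed line, Malat1 lies at 16.4, and the 4 unnamed points above 40 are haemoglobin genes, led by Hbb-bs.

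The limits of the rule cut a continuous range. Cells with A of 1.2 to 1.3 (204) and cells with A of 1.1 to 1.2 that met the other limits (161) had 885 and 831 CPM of Cav1, 430 and 395 CPM of Sema3a, and 248 and 228 CPM of Sftpb. Cells with S of 1.5 to 2 (76) and of 2 to 2.5 (39) had 17064 and 22376 CPM of Sftpc, 449 and 529 CPM of Sftpb, 152 and 213 CPM of Slc34a2, and 944 and 838 CPM of Cav1. Of the 3697 cells with A of at least 1.2, 243 had S between 2 and 8 and 44 had S of at least 8, with median depths of 15619 and 15244 UMIs, against 5177 in AT1 cells. These 44 cells held 724 CPM of Cav1, 822 CPM of Igfbp7 and 219 CPM of Sema3a beside 2257 CPM of Sftpb and 344 CPM of Lamp3. In AT1 cells the same genes had 1125, 1172, 562, 192 and 41.3 CPM, and in AT2 cells 117, 109, 54.9, 3278 and 748 CPM. The 44 cells lay between both sets for all 5 genes, and what part pairs of cells in 1 droplet have in them was not tested. A further 1277 cells had A between 0.5 and 1.2 with S between 2 and 8, at a median depth of 20908 UMIs.

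At P10 the same rule found 9 of 14086 kept cells (0.0639%, 0.0292 to 0.121), against 3220 of 12027 at E18.5. The P10 leukocytes, 839 cells, had a median S of 1.93, so the limit of 2 lay at the level of free Sftpc RNA there, and without it 22 cells had A of at least 1.2, against 3697 at E18.5. The 9 cells held 49798 UMIs in all, and their levels are set beside those of the E18.5 AT1 cells with no comparison of conditions. The 7 rule genes chose the P10 cells too and went both ways. Rtkn2 had 3996 CPM (3460.2 to 4592) in the P10 cells and 1041 CPM at E18.5, and Ager 9960 and 8251 CPM. Clic5 had 2952 and 1499.8 CPM, Akap5 1325 and 937 CPM, and Pdpn 442 and 294 CPM. Hopx was lower in the P10 cells, at 2972 against 5096 CPM, as was Aqp5, at 1627 against 1941 CPM. Outside the rule, Igfbp7 had 2570.4 CPM (2144 to 3056) in the P10 cells and 1172 CPM at E18.5, and Col4a4 3755 CPM (3236 to 4334) and 794 CPM. Cav1 stood at 1265 CPM (972 to 1619) in the P10 cells and 1125 CPM at E18.5. Igfbp2, absent from the measured genes of E18.5, had 13 UMIs or 261 CPM (139 to 446) in the P10 cells, against 8.78 CPM at E18.5. In the other direction, Msln had 3 UMIs or 60.2 CPM (12.4 to 176) in the P10 cells, against 959.8 CPM at E18.5, and Aqp1 181 CPM (82.6 to 343) against 495 CPM. No Wfdc1 UMI was seen in the P10 cells, which allows up to 60.2 CPM at 3 counts, against 165 CPM at E18.5.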

How the data were processed

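Single cells of 1 E18.5 and 1 P10 library of mouse lung, labelled batch 1, were read with a droplet kit for the 3' ends of transcripts. Raw UMI counts were deposited as a gene-by-barcode matrix for each library. Per the file headers, the authors' counting tool was Cell Ranger 7.0.1. The submitters' processing notes name the mm10 build and Seurat 4.0.0, with no role given. The sources used here do not say if reads in introns were counted. Both samples were grouped by their time point label, since the tissue label of the P10 sample says embryonic lung.

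Counts were read with Python 3.11.15, numpy 2.4.6, scipy 1.17.1 and pandas 2.3.3, and plotted with matplotlib 3.10.9. Barcodes with under 500 genes, under 1000 UMIs or over 20% mitochondrial UMIs were left out (712 at E18.5 and 417 at P10). The counts of each set's cells were then added up and expressed as CPM. Summed counts carry exact Poisson intervals, ratios exact conditional binomial intervals and shares of cells exact binomial (Clopper-Pearson) intervals, all at 95%, and a count of 0 the limit of 3 counts. With 1 library per time point there is no replicate, and no test was made. A gene was measured at 10 CPM or more in either set and higher or lower at 2-fold. Named genes were those of the rule, the 15 largest ratios in each direction among genes averaging at least 50 CPM (leaving out sex-linked, haemoglobin, ribosomal and mitochondrial genes and symbols that start with Gm or end in Rik), members of 20 gene lists and of cell type marker lists, the 15 highest Fano factors (with the same genes left out), and Cdh16 and Epcam. The members and lists were chosen with earlier results of these data known. For shares and Fano factors each cell was thinned to 3000 UMIs, which left out 473 AT1 cells, 46 AT2 cells and 30 leukocytes with fewer. No doublet caller was used, so doublets may remain, and the counts were repeated without the deepest 5% of cells and at matched depth. The calculation of the ratio and its interval was run on simulated Poisson counts. These hold no spread between cells, so the run cannot show how well the intervals cover real cells. Gene positions came from GENCODE vM21 on GRCm38, which is mm10. Alternatives are given in the closing section.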

Additional observations from a re-analysis of the deposited data

Results flagged for a closer look

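A set of 190 E18.5 cells met the limits of A and S but held a Ptprc UMI, and the rule left them out of the AT1 cells. Of these, 4 are among the 300 leukocytes and 186 are in no comparison. They had a median of 12457 UMIs, against 5177 in AT1 cells, and 111 of them had exactly 1 Ptprc UMI. Their leukocyte genes lay between those of both sets, with Tyrobp, an adaptor of myeloid receptors, at 508 CPM in these cells, 37.5 CPM in AT1 cells and 1702 CPM in leukocytes, and Fcer1g, an Fc receptor chain, at 747, 66.1 and 2424 CPM. Their AT1 genes were near those of AT1 cells, with 1002 CPM of Cav1 in these cells, 1125 in AT1 cells and 220.5 in leukocytes, and 424, 562 and 94.7 CPM of Sema3a. The part of droplets with more than 1 cell in these values was not tested.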

How the results depend on the processing

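No paired analysis was possible because each time point has 1 library, and for the same reason no replicate could be left out. The number of AT1 cells was 1311 with A of at least 2, and between 2958 and 3648 under the other limits and filters tried. The number of genes at least 2-fold higher in AT1 cells moved by over 1.5 times under 5 of 15 alternatives. It was 1914 with AT2 cells of S of at least 15, 732 on the centred scale, 3373 without a filter on the level and 645 at a minimum of 50 CPM. It was 2921 without cells that held a UMI of other cell types' genes, where 216 AT1 and 19 AT2 cells were left. The number of lower genes was 5981 without a filter, 301 at 50 CPM and 1392 in the last setting. At matched depth (4000 to 10000 UMIs) 1486 genes were higher and 802 lower, and without the deepest 5% of cells 1311 and 782. The 30 named largest ratios had 1 direction under the 15 alternatives, at 2.76 or more in size on the log2 scale. They were picked as the largest in these same cells, and Rtkn2, Akap5, Pdpn and Sftpc among them belong to the rule. Their direction is therefore a description and no support. The medians of ion transport (-0.11 to 1.23), glycogen (-0.58 to 0.29), hypoxia (-0.44 to 0.04), immediate early genes (-0.58 to 0.17) and cell division (-1.55 to 0.03) changed sign between settings, and that of simple keratins ran between 0.011 and 1.43. Alternatives for the immediate early genes along A and for the leukocytes were chosen after seeing the data. With leukocytes of A under 0.5, AT2 cells were at or below leukocytes for 3 and not 14 of the 15 largest ratios in favour of AT1 cells. The ratio of Wfdc1 had no value with those 19 AT2 cells, which held no UMI of it. Counting error limits the low genes, so a minimum of 10 CPM was set, and the P10 cells that met the AT1 rule held 49798 UMIs in all.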

Other observations

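The S100 family of calcium-binding proteins held more higher than lower genes. Of 13 genes 10 were measured, 5 at least 2-fold higher in AT1 cells and 1 lower (4 and 1 on the centred scale), with a median log2 ratio of 0.82. Over all measured genes 14.4% were higher and 9.09% lower, and the count of lower genes is near that share. In AT1 cells 6 of the 10 were at or below leukocytes, also with the 259 alone, beside 37.3% of all measured genes. S100a6 had 3656 CPM in AT1 cells, 582 in AT2 cells and 1719 in leukocytes, S100a14, of epithelia, 489, 83.5 and 68.4 CPM, and S100a11 1487, 495 and 1750.2 CPM, below leukocytes. S100g, the calcium buffer calbindin of the gut and uterus, was 18.8-fold lower, with 42.3 CPM in AT1 cells, 796 in AT2 cells and 50.4 in leukocytes.

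Glycogen, the store that fetal alveolar cells draw on for surfactant lipid, and glycolysis showed small ratios. Of 17 glycogen genes 14 were measured, 2 higher and 1 lower (1 and 4 on the centred scale), with a median log2 ratio of 0.11. Over all measured genes 14.4% were higher and 9.09% lower (8.63% and 12.9% on the centred scale). As scaled to totals, the glycogen counts are near those shares. Ppp1r3c, which brings a phosphatase to glycogen, was 4.78-fold lower (4.08 to 5.64) in AT1 cells, with 8.44 CPM in AT1 cells, 40.4 in AT2 cells and 4.82 in leukocytes. Of 19 hypoxia and glycolysis genes 18 were measured, 1 higher and 1 lower (1 and 4 on the centred scale), with a median of -0.11. In AT1 cells 14 were at or below leukocytes, also with the 259 alone, beside 37.3% of all measured genes. Hk2, of hexokinase, had 35.2, 88.4 and 98.6 CPM, and Slc2a1, of the glucose carrier GLUT1, 64.7, 64.3 and 102 CPM.

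The library held cells with Xist and cells with Y-linked UMIs. Of AT1 cells 1221 had Xist and no Y-linked UMI, 617 a Y-linked UMI and no Xist, 210 both and 1172 neither, and of AT2 cells 1050, 604, 296 and 636. The AT1 and AT2 comparison made within Xist cells gave 1494 higher and 812 lower genes, and within Y-linked cells 1082 and 797.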
